A study of Homo sapiens with 12 samples.

Results

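The negative and positive regulators that p53 controls, or that control p53 protein in turn, were followed across 12 RNA-sequencing libraries from 2 human cell lines. The 8 genes were taken by symbol from the deposited gene count table, which holds 36486 symbols or unnamed identifiers, and all 8 were found there, each under a single Ensembl identifier. They were MDM2, MDM4, RCHY1, USP7, PPM1D, CCNG1, CCNG2 and TP53INP1. TOV-112D is a line from an ovarian adenocarcinoma whose p53 carries the R175H change, and it was exposed for 3 h to DMSO, the solvent, to UCI-1001 or to UCI-1014, with 2 libraries of each. Saos-2 is an osteosarcoma line without p53, compared as p53-null cells with a stable derivative that carries doxycycline-inducible wild-type p53 delivered by lentivirus. There were 3 libraries of each, both given as 16 h. The p53-WT cells thus differ from p53-null cells also in carrying the lentiviral construct, which cannot be told apart from p53 itself. Nothing in the labels says that libraries of a group came from separate cultures, so p-values measure the spread between these libraries, which may be technical. The dose of UCI-1014 is not given in the sources used here, so whether the compounds were applied at matched doses is unknown.

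p53 is a transcription factor that is kept scarce by a loop: it switches on MDM2, and the MDM2 protein, a ubiquitin ligase, marks p53 for destruction and masks the part of p53 that activates genes. MDM4 is a relative of MDM2 that binds and silences p53 and pairs with MDM2, RCHY1 is another p53-inducible ubiquitin ligase, and USP7 is a deubiquitinase that removes ubiquitin from both MDM2 and p53. PPM1D is a phosphatase that reverses the phosphorylation by which damage kinases activate p53, the cyclin CCNG1 recruits the phosphatase PP2A to MDM2, CCNG2 is the related cyclin G best known as a target of FOXO factors, and TP53INP1 is a p53-induced nuclear protein that helps to activate p53.

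The MDM2 promoters are shown because the p53 response of the gene is known to run through the internal one, called P2, while the upstream one, P1, serves p53-independent expression. MDM2 lies on chromosome 12 at 68808177 to 68845544 (GRCh38, GENCODE release 44, plus strand). The sequences are RefSeq windows on GRCh38.p14 of 300 bases, from 250 bases before to 50 bases after an annotated start, read 5′ to 3′ on the gene's strand. In the P2 window, capitals mark the stretches of 20 bases that matched the p53 response element consensus (a tandem pair of its decamers without a spacer) with 3 mismatches or fewer.

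MDM2 P1, chr12:68807922-68808221, plus strand: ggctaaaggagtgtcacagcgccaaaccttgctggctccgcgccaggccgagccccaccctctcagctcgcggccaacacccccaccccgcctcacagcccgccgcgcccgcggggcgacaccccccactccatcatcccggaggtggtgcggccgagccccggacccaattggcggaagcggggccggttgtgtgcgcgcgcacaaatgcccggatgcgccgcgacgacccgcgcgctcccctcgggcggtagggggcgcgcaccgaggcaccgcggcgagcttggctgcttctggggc

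MDM2 P2, chr12:68808767-68809066, plus strand: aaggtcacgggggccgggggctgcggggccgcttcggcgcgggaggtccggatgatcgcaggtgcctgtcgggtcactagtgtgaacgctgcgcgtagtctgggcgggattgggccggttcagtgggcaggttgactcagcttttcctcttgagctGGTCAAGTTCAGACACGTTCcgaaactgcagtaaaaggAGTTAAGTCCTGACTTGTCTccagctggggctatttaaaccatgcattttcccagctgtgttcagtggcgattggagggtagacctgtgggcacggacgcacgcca

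The P2 window lay inside the first intron of the P1 transcript MDM2-202, whose first exon was annotated at 68808177 to 68808491. Its p53-like matches stood at 68808923 to 68808942, with 2 mismatches, and at 68808961 to 68808980, with 3. Of 35116 such windows over all genes, 5.2% held a match with 3 mismatches or fewer and 0.649% one with 2 or fewer. The P1 window came no closer than 5 mismatches. Among the other members with a RefSeq window (MDM4, RCHY1, USP7, PPM1D, CCNG1 and CCNG2), none had a match with 3 mismatches or fewer, which says only that these letters were not in these windows.

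The PPM1D window is shown because PPM1D was higher in each of the 4 comparisons made within a cell line. PPM1D lies on chromosome 17 at 60600193 to 60666280, plus strand, and its window held TGACGTCA, the cyclic AMP response element that CREB family factors bind, in capitals below. On either strand, 1.85% of all windows held these letters. They were among 4 motifs searched for, besides the p53 site, in 16 windows of the members. CACGTG was also found in windows of RCHY1 and CCNG2, and in 7.26% of all windows. TGANTCA was found in the P2 window of MDM2, and in 7.71% of all windows.

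PPM1D, chr17:60599943-60600242, plus strand: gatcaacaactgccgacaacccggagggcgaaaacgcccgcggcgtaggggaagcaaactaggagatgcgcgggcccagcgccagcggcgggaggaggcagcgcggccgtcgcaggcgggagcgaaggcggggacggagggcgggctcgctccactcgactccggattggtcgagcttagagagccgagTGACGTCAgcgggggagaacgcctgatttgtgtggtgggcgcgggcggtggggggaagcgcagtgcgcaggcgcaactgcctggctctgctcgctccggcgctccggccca

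Total counts ran from 17762027 to 24629558 per library, at which 3 counts correspond to 0.122 to 0.169 CPM before scaling. CPM values are read counts scaled to a common library size by the TMM method within each cell line. Replicate 1 of each Saos-2 group stood apart from its partners: the chi-square per degree of freedom between libraries of a group was 23.0 to 38.4 for pairs with a replicate 1 and 3.09 to 3.79 between the others, against 2.08 to 3.73 in TOV-112D. The p53-WT results of the members, but not of other genes, are therefore also given without these 2 libraries. The labelled tissues were only in part visible in the markers examined: in TOV-112D, KRT18 was at 0 in every library, KRT8 stayed at or below 0.512 CPM and EPCAM ran from 1.80 to 3.09 CPM. In Saos-2, the osteoblast factor SP7 was at 0 in every library, the bone collagen COL1A1 stayed at or below 1.84 CPM, and the 6 osteoblast markers summed to 1.99 to 6.37 TPM, against 28.7 to 35.5 TPM in TOV-112D. The 7 epithelial and ovarian markers summed to 695 to 800 TPM in Saos-2 and to 2.85 to 5.83 TPM in TOV-112D. By CPM, scaled within each line, KRT8 and KRT18 were by far the highest of these in Saos-2. PAX8 was also higher there (3.27 to 7.58 CPM, against at most 0.0515 CPM). EPCAM and CDH1 were lower there, at most 0.0996 and 0.263 CPM, with CDH1 at 0.819 to 1.79 CPM in TOV-112D. The highest osteoblast marker in TOV-112D was COL1A1, at 47.7 to 53.04 CPM. RUNX2 overlapped between DMSO-treated TOV-112D and p53-null Saos-2 cells. Some markers moved with a group: in Saos-2, RUNX2 ran from 8.48 to 12.1 CPM without p53 and from 4.16 to 6.04 CPM with p53-WT, KRT8 from 194 to 207 CPM and from 431 to 568 CPM, and KRT18 from 510 to 559 CPM and from 402 to 509 CPM, so that KRT8 was higher and KRT18 lower in every p53-WT library. In TOV-112D, RUNX2 ran from 7.89 to 9.20 CPM with DMSO and from 4.71 to 5.91 CPM with UCI-1014, whereas SPARC ran from 1.29 to 1.68 CPM and from 1.79 to 2.45 CPM, and the 6 osteoblast markers summed to 28.7 to 32.3 TPM and to 34.2 to 35.5 TPM. Their part in the results was not tested, and in bulk samples fewer cells of a type and less RNA per cell cannot be told apart.

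Levels of different genes were compared in TPM, a scale that divides by transcript length, over the transcripts found in GENCODE. In DMSO-treated TOV-112D cells USP7 was the most abundant member (76.3 ± 6.40 TPM, SD, n = 2), followed by CCNG1 (47.4 ± 2.59) and MDM2 (47.2 ± 0.916), which did not differ beyond their spread. RCHY1 (22.4 ± 4.22) and PPM1D (18.0 ± 1.20) came next, and CCNG2 (11.8 ± 0.0260) and MDM4 (9.46 ± 4.66) overlapped. In p53-null Saos-2 cells CCNG1 led (182 ± 9.74 TPM, n = 3), USP7 (58.8 ± 10.1) and MDM2 (54.1 ± 3.41) overlapped, and MDM4 was at 2.44 ± 0.450. With p53-WT, MDM2 stood first at 1043 ± 429 TPM (n = 3), above CCNG1 at 445 ± 63.2 and TP53INP1 at 103 ± 34.9. MDM2 was at 46.5 to 57.1 TPM in the control cells of both lines, and TP53INP1 was at 2.11 to 2.31 TPM in p53-null Saos-2 cells and at or below 0.0498 TPM in TOV-112D.

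**Figure D1:**
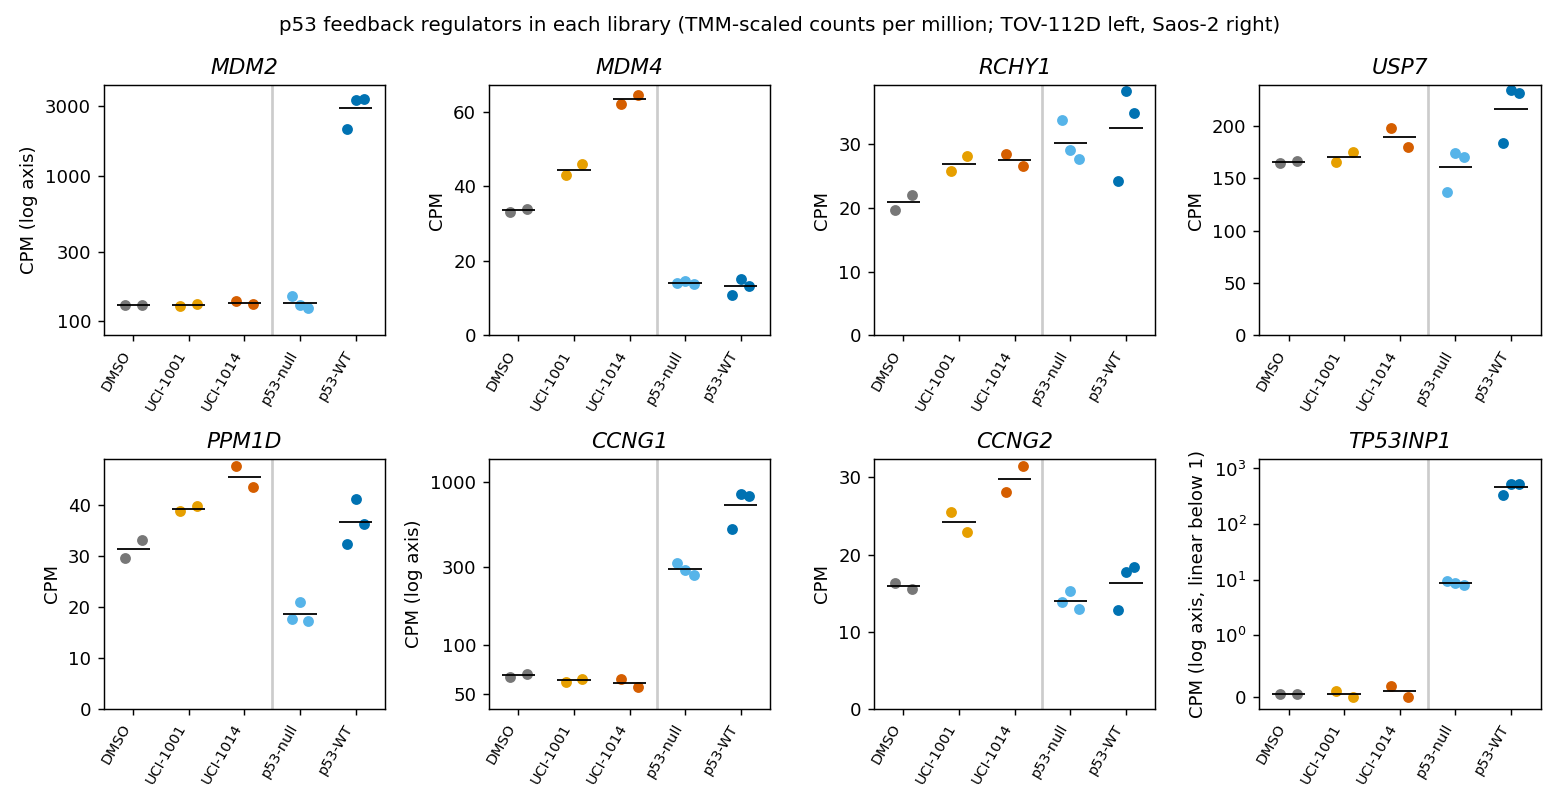
TMM-scaled CPM of each of the 8 genes (y axis, logarithmic for MDM2, CCNG1 and TP53INP1, the last linear below 1) in every library, by group (x axis), with points for libraries and lines for group means. MDM2 lies at 128 to 138 CPM in the 6 TOV-112D libraries and at 2087 to 3388 CPM with p53-WT, and MDM4 lies highest with UCI-1014 in TOV-112D and overlaps between the Saos-2 groups.

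With UCI-1001, MDM2 did not pass the test, while MDM4, RCHY1, PPM1D and CCNG2 rose and no member fell. Over all 14177 features tested in TOV-112D, 15.7% passed an adjusted p of 0.05 for UCI-1001 with 9.39% higher and 6.36% lower. The count of 4 higher among the 7 members tested stands beside that share; their median log2 fold change was 0.33, against 0.00 over all features. The eighth, TP53INP1, was under the filter on low counts in TOV-112D.

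With UCI-1014, 47.1% of all features passed, 23.7% as higher and 23.4% as lower, and 5 of the 7 tested members rose, USP7 beside the same 4 genes. Their median was 0.40 on the log2 scale, against -0.02 over all features. UCI-1001 and UCI-1014 were compared with the same 2 DMSO libraries, so their lists are not independent. Directly between the compounds, 31.1% of features passed, 17.1% higher and 13.9% lower with UCI-1014, and the higher ones held 4 of the 7 members (MDM4, CCNG2, PPM1D and USP7).

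In Saos-2 cells 66.5% of 14275 features differed between p53-WT and p53-null, 33.5% higher and 33.0% lower with p53-WT. There 5 of 8 members rose (MDM2, TP53INP1, CCNG1, PPM1D and USP7) and none fell, a share of calls close to that of all features; the median over the 8 was 0.70, against -0.01. PPM1D and USP7 were the members higher in both the p53-WT and the UCI-1014 comparisons.

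**Figure D2:**
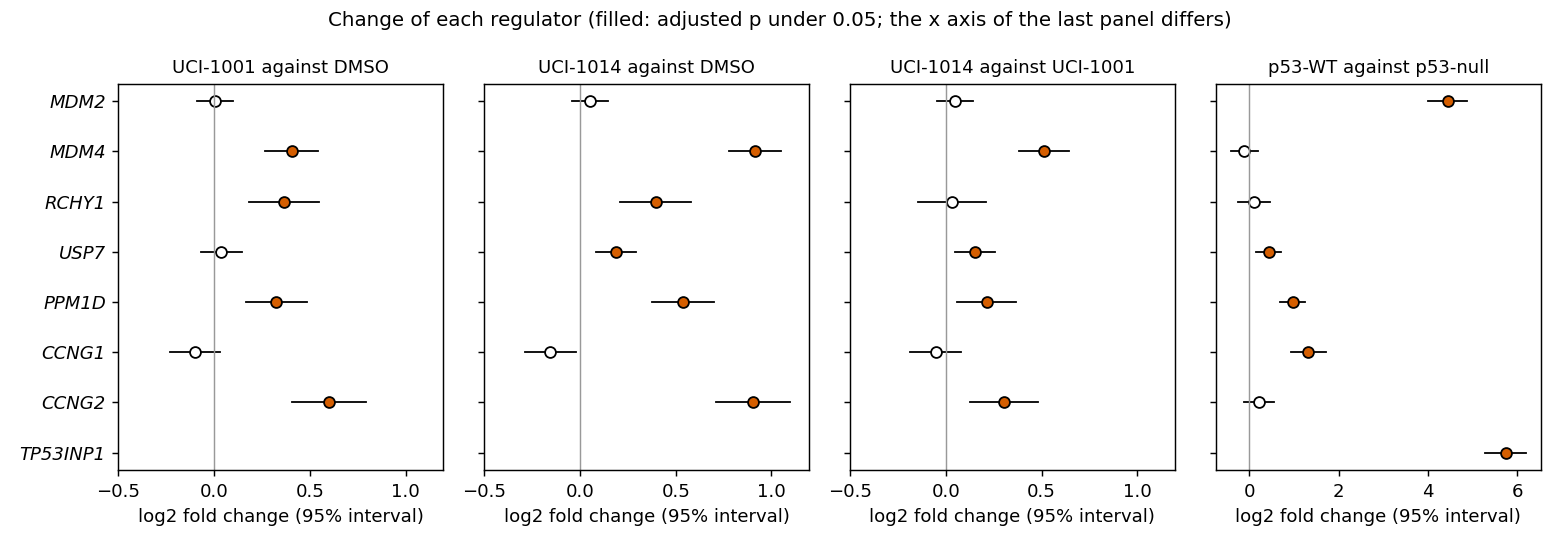
log2 fold change of each gene (x axis) with its 95% interval in the 4 comparisons, filled where the adjusted p was under 0.05. MDM4 and CCNG2 lead the UCI-1014 panel at 0.92 and 0.90 and lie near 0 in the p53-WT panel, where MDM2 is at 4.44 and TP53INP1, not tested in TOV-112D, at 5.74.

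Among the 7 members tested in both lines, MDM2 showed the widest gap between the systems. Its CPM was 129.7 and 129.8 with DMSO, 127.7 and 132.5 with UCI-1001, and 138.3 and 131.1 with UCI-1014. The UCI-1001 libraries lay on either side of the DMSO libraries, and the UCI-1014 libraries were above them by a few CPM. The fold was 1.00 with UCI-1001 (95% interval 0.940 to 1.07, edgeR adjusted p = 0.968) and 1.04 with UCI-1014 (0.972 to 1.11, adjusted p = 0.350), from 2315 to 2635 counts a library. In Saos-2 cells MDM2 was at 148.8, 130.3 and 123.6 CPM without p53 and at 2087, 3289 and 3388 CPM with p53-WT. The groups were far apart, with the p53-WT replicate 1 the lowest of its group, and the rise was 21.8-fold (95% interval 16.0 to 29.5, adjusted p = 9.89e-09). Without both replicates 1 the log2 fold change was 4.72 rather than 4.44. By size of rise MDM2 ranked at place 326 of 14275 features.

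The difference between the responses was tested in a fit of all 12 libraries, in which 49.7% of 15794 features differed between the UCI-1001 and the p53-WT response, 24.5% higher and 25.1% lower with the compound. Between the UCI-1014 and the p53-WT response 53% differed, 25.9% higher and 27.1% lower. Of the 7 members tested, 4 differed with UCI-1001 (MDM2, CCNG1 and PPM1D lower, MDM4 higher) and 5 with UCI-1014 (CCNG2 also higher). The MDM2 response was lower by -4.48 on the log2 scale with UCI-1001 (standard error 0.24, adjusted p = 2.96e-09) and by -4.46 with UCI-1014 (adjusted p = 2.87e-09). Without both replicates 1 of Saos-2, the differences called for MDM2, CCNG1, PPM1D, MDM4 and CCNG2 kept their direction and call, and USP7 also became lower, by -0.38 with UCI-1001 (adjusted p = 1.76e-04) and by -0.22 with UCI-1014 (adjusted p = 0.0106). The 2 systems differ in cell line, in the state of p53 and in duration, 3 h against 16 h, and these cannot be told apart.

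MDM2 transcripts were grouped by their annotated start, since P1 and P2 begin different first exons. Of 33 annotated transcripts quantified, 6 began between 68808177 and 68808464 (P1 starts), 22 between 68809002 and 68809226 (P2 starts), and 5 further downstream. In TOV-112D, transcripts with P2 starts summed to 22.2 and 20.4 TPM with DMSO, 20.4 and 23.4 with UCI-1001, and 26.2 and 20.9 with UCI-1014. The treated libraries overlapped the DMSO libraries for both compounds. Transcripts with P1 starts summed to 16.4 and 14.8 TPM with DMSO, 17.6 and 18.2 with UCI-1001, and 17.2 and 18.5 with UCI-1014. These sums lay above the DMSO values in all 4 treated libraries, a difference that was not tested. MDM2-202, the transcript on which the P1 sums mostly rest, overlapped between the groups. Its TPM was 11.41 and 10.81 with DMSO, 10.98 and 11.43 with UCI-1001, and 11.31 and 10.89 with UCI-1014. The gap in the sums thus came from the other P1 transcripts.

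In Saos-2 cells the P2 starts went from 13.7, 14.9 and 13.2 TPM without p53 to 387, 415 and 431 TPM with p53-WT, 29.5 times the p53-null mean. The P1 starts went from 13.4, 17.4 and 14.8 TPM to 136, 284 and 293 TPM, 15.6 times. Both groups of transcripts were thus higher in every p53-WT library. As a share of all MDM2 TPM, P2 starts made up 27.1%, 27.2% and 23.2% without p53 and 70.6%, 31.5% and 34.1% with p53-WT. The first p53-WT library stood apart here: its downstream starts summed to 25.6 TPM, against 620 and 539 TPM in the other p53-WT libraries.

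The libraries differed in short fragments at the 3′ end of the gene. MDM2-230, annotated at 68843066 to 68844190 without a coding sequence, was at 21.5 TPM in the first p53-WT library and at 356 and 333 TPM in the others. MDM2-226, at 68842441 to 68844181, was listed at 0 in the first and at 246 and 187 TPM in the others. Both overlap the last exon of MDM2-202, annotated at 68839274 to 68845544, and only 4 of the 33 transcripts reach 2000 bases into that exon. In these annotated models, reads from a long 3′ end could go only to MDM2-202 or to such fragments, whichever promoter the molecule came from. How reads were in fact assigned was not tested, and transcripts outside GENCODE release 44 are not covered. The P1 sums rest mostly on MDM2-202. MDM2-202 was 12633 bases long in the deposited files and 7490 in GENCODE release 44, so its placement here comes from another version.

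The P2 transcript MDM2-224, a coding transcript of 2523 bases, varied little among the p53-WT libraries. It was at 6.66, 7.26 and 5.45 TPM without p53 and at 158, 163 and 173 TPM with p53-WT, where replicate 1 was close to its partners. In TOV-112D it stood at 17.5 and 18.4 TPM with DMSO, 17.3 and 19.2 with UCI-1001, and 19.9 and 19.0 with UCI-1014. Its level in TOV-112D was above that in p53-null Saos-2 cells, without overlap, but cell line and p53 state differ together here. MDM2-206, another coding transcript with a P2 start, went the other way. It was at 0 TPM in every TOV-112D library and at 4.58, 4.14 and 5.95 TPM in p53-null Saos-2 cells. MDM2-211, a shorter coding transcript with a P2 start, ran from 0 to 1.04 TPM in the 9 libraries without p53-WT and was at 58.7, 71.0 and 91.3 TPM with it.

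**Figure D3:**
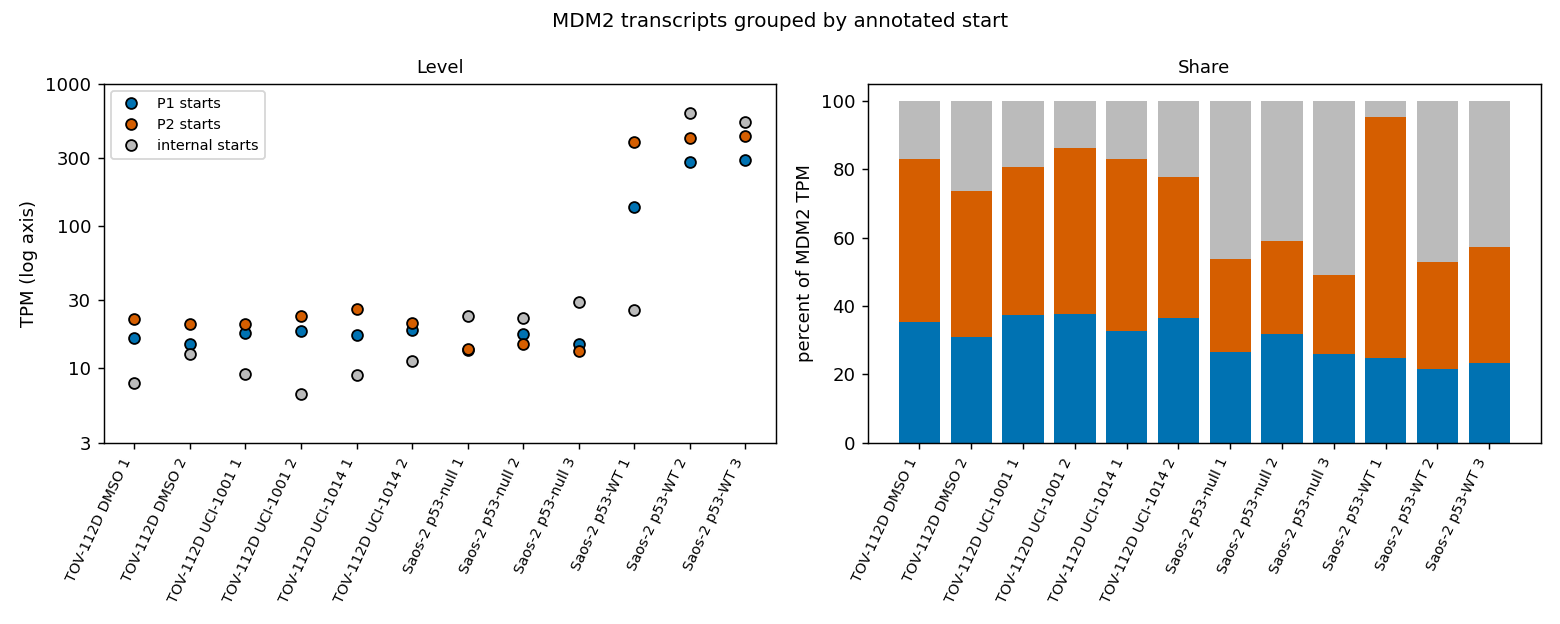
MDM2 transcripts summed by annotated start, as TPM on a logarithmic y axis (left) and as percent of MDM2 TPM (right), for each of the 12 libraries on the x axis. The P2 sums lie at 13.2 to 26.2 TPM in the 9 libraries without p53-WT and at 387 to 431 TPM with it, and the first p53-WT library has the smallest share from internal starts.

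MDM4, on chromosome 1 at 204516379 to 204558120, rose with both compounds, while its Saos-2 groups overlapped. Its CPM was 33.2 and 33.9 with DMSO, 43.0 and 45.9 with UCI-1001, and 62.1 and 64.5 with UCI-1014. No library overlapped with another group's, and the order was DMSO, UCI-1001, UCI-1014. The fold was 1.32 with UCI-1001 (edgeR, adjusted p = 6.25e-04), 1.89 with UCI-1014 (adjusted p = 2.45e-08), and 1.43 between UCI-1014 and UCI-1001 (adjusted p = 1.85e-05). In Saos-2 cells MDM4 was at 14.1, 14.7 and 13.7 CPM without p53 and at 10.9, 15.3 and 13.2 CPM with it, overlapping groups with a log2 fold change of -0.11 (95% interval -0.42 to 0.20, adjusted p = 0.506). The response exceeded that to p53-WT by 0.95 on the log2 scale with UCI-1014 (adjusted p = 2.27e-04) and by 0.48 with UCI-1001 (adjusted p = 0.0273). The latter call was lost without DMSO replicate 1 (0.0827), DMSO replicate 2 (0.0666), UCI-1001 replicate 2 (0.0982) or p53-null replicate 2 (0.0562).

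RCHY1, on chromosome 4 at 75479033 to 75514764, rose to like levels with either compound. It was at 19.7 and 22.1 CPM with DMSO, 25.7 and 28.1 with UCI-1001, and 28.4 and 26.6 with UCI-1014. Both treated groups lay above DMSO, by 1.29-fold (adjusted p = 0.00950) and 1.32-fold (adjusted p = 0.00161), and they overlapped each other, with a log2 difference of 0.03 (95% interval -0.15 to 0.21). In Saos-2 cells it ran from 27.7 to 33.8 CPM without p53 and from 24.2 to 38.3 CPM with it (adjusted p = 0.596). The lowest p53-WT value was replicate 1, and without both replicates 1 RCHY1 rose by 0.37 on the log2 scale (adjusted p = 6.94e-04), as it did without p53-WT replicate 1 alone (adjusted p = 0.0418). With UCI-1014 its call was lost in one fit of all 12 libraries (adjusted p = 0.212) and with an offset for effective length (0.0737).

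USP7, on chromosome 16 at 8892097 to 8975328, had the smallest called change with UCI-1014. It was at 165 and 166 CPM with DMSO, 165 and 174.8 with UCI-1001, and 198 and 180 with UCI-1014. The UCI-1001 libraries overlapped those with DMSO (fold 1.03, adjusted p = 0.675), and those with UCI-1014 were above, 1.14-fold (adjusted p = 0.00527). In Saos-2 cells it went from 137, 174 and 171 CPM to 184, 234 and 231 CPM, 1.35-fold (adjusted p = 0.0136). This call was lost without p53-null replicate 1 (adjusted p = 0.0506), without p53-WT replicate 2 (0.0531) and without p53-WT replicate 3 (0.0516), and kept at 0.44 on the log2 scale without both replicates 1. With UCI-1014 it was lost in one fit of all 12 libraries (0.546) and with the length offset (0.0911).

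PPM1D was at 29.5 and 33.1 CPM with DMSO, 38.7 and 39.7 with UCI-1001, and 47.5 and 43.5 with UCI-1014. The 3 groups did not overlap, with a fold of 1.25 for UCI-1001 (adjusted p = 0.00892) and 1.45 for UCI-1014 (adjusted p = 3.44e-05). In Saos-2 cells PPM1D went from 17.7, 20.9 and 17.4 CPM to 32.4, 41.2 and 36.2 CPM, 1.96-fold (adjusted p = 4.95e-05), or 0.97 on the log2 scale and 1.02 without both replicates 1, which took it to the range of DMSO-treated and UCI-1001-treated TOV-112D cells, counted on a separate scaling. Its response was smaller than that to p53-WT with UCI-1001 (difference -0.68, adjusted p = 0.00346) and with UCI-1014 (-0.50, adjusted p = 0.0203), the latter call being lost without DMSO replicate 2 (0.101) or UCI-1014 replicate 2 (0.0847).

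Of the G-type cyclins, CCNG1 rose with p53-WT and CCNG2 with the compounds. CCNG1, on chromosome 5 at 163437569 to 163446151, was at 63.7 and 65.7 CPM with DMSO, 58.7 and 61.8 with UCI-1001, and 61.2 and 55.2 with UCI-1014. All 4 treated libraries were below both DMSO libraries, yet neither compound passed the test (fold 0.932, adjusted p = 0.306, and 0.898, adjusted p = 0.0538). Without UCI-1014 replicate 1, CCNG1 fell by 0.22 on the log2 scale with UCI-1014 (adjusted p = 0.0192). With p53-WT it went from 318, 289 and 270 CPM to 514, 852 and 822 CPM, 2.50-fold (adjusted p = 5.21e-05), with p53-WT replicate 1 the lowest. This was 1.32 on the log2 scale, and 1.59 without both replicates 1. The CCNG1 response was lower than that to p53-WT by -1.46 on the log2 scale with UCI-1001 (adjusted p = 1.60e-04) and by -1.54 with UCI-1014 (adjusted p = 8.98e-05).

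CCNG2, on chromosome 4 at 77157207 to 77433388, was at 16.3 and 15.6 CPM with DMSO, 25.5 and 22.9 with UCI-1001, and 28.1 and 31.5 with UCI-1014. It had the largest rise of any tested member with UCI-1001, 1.52-fold (adjusted p = 4.08e-04), and one close to that of MDM4 with UCI-1014, 1.87-fold (adjusted p = 1.25e-06). In Saos-2 cells the groups overlapped, at 13.8, 15.3 and 13.0 CPM without p53 and 12.9, 17.8 and 18.4 CPM with it (fold 1.17, adjusted p = 0.218). Here too replicate 1 was the lowest with p53-WT, and without both replicates 1 CCNG2 rose by 0.36 on the log2 scale (adjusted p = 0.00684), as it did without p53-WT replicate 1 alone (0.0145). The UCI-1014 response exceeded that to p53-WT by 0.61 (adjusted p = 0.0218), a call lost without DMSO replicate 1 (0.0510), DMSO replicate 2 (0.0762) or UCI-1014 replicate 2 (0.0948), and the UCI-1001 response by 0.34, which did not pass (adjusted p = 0.188).

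TP53INP1, on chromosome 8, had the largest rise of any member with p53-WT. It was at 201, 181 and 186 counts without p53 and at 7510, 10618 and 12010 counts with p53-WT, or 9.26, 8.58 and 8.16 CPM against 333, 529 and 529 CPM. The rise was 53.5-fold (95% interval 39.1 to 73.2, adjusted p = 2.36e-09) and placed it 186th of the 14275 features. On the log2 scale it was 5.74, and 5.99 without both replicates 1. In TOV-112D the table held 1 and 1 counts with DMSO, 2 and 0 with UCI-1001, and 3 and 0 with UCI-1014. All these are at or under 3 counts, so neither a level nor a change could be measured at this depth, and no fold is given.

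Between the compounds, MDM4 was the member with the largest difference, and 3 others were called with less margin. CCNG2 was 1.23-fold higher with UCI-1014 (adjusted p = 0.0132), PPM1D 1.16-fold (adjusted p = 0.0376) and USP7 1.11-fold (adjusted p = 0.0291). Each of these 3 calls was lost when single libraries were left out. For PPM1D the adjusted p was 0.133 without UCI-1001 replicate 1, 0.0598 without UCI-1001 replicate 2 and 0.189 without UCI-1014 replicate 1. For USP7 it was 0.0648 without DMSO replicate 2, 0.159 without UCI-1001 replicate 1 and 0.201 without UCI-1014 replicate 1. For CCNG2 it was 0.0881 without UCI-1001 replicate 2 and 0.106 without UCI-1014 replicate 2. MDM2 was 1.03-fold higher with UCI-1014 (95% interval 0.969 to 1.10), CCNG1 0.964-fold (0.879 to 1.06) and RCHY1 1.02-fold (0.903 to 1.15).

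Some calls with UCI-1001 rested on single libraries. PPM1D lost its call without DMSO replicate 1 (adjusted p = 0.158) and without UCI-1001 replicate 2 (0.0594), and RCHY1 lost it without the same libraries (0.146 and 0.0971). When all 12 libraries shared an estimate of the spread, no call was left among the 4, with adjusted p of 0.196 for MDM4, 0.387 for PPM1D, 0.527 for RCHY1 and 0.103 for CCNG2. MDM4, PPM1D and CCNG2 kept theirs with UCI-1014 in that fit.

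Other genes that act on the same loop were read from lists by role, whose counts stand beside the shares of all features called: 15.7% with UCI-1001 (9.39% higher, 6.36% lower), 47.1% with UCI-1014 (23.7% and 23.4%) and 66.5% with p53-WT (33.5% and 33.0%). Of 11 further ubiquitin ligases for p53, 0 rose and 1 fell with UCI-1001, 6 rose and 3 fell with UCI-1014, and 3 rose and 5 fell with p53-WT. TRIM28, a MDM2 partner, was the ligase that fell with UCI-1001, from 617 ± 13.3 to 566 ± 16.2 CPM (adjusted p = 0.0426). With UCI-1014, SIAH1 rose by 0.53, MKRN1 by 0.52 and RFWD3 by 0.45 on the log2 scale. RFWD3, a ligase of the replication stress response, went the other way with p53-WT, from 252 ± 2.69 to 62.2 ± 2.63 CPM (n = 3, adjusted p = 1.71e-08), while COP1 rose by 0.95 (adjusted p = 3.73e-05) and UBE3A fell by 0.72 (adjusted p = 0.00240).

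Of 7 further deubiquitinases, 0 changed with UCI-1001, 2 rose and 2 fell with UCI-1014, and 3 rose and 1 fell with p53-WT. OTUD5, which stabilizes p53, rose from 124 ± 3.10 CPM with DMSO to 196 ± 8.99 CPM with UCI-1014 (adjusted p = 1.75e-08). USP15, a stabilizer of MDM2, rose by 1.37 with p53-WT (adjusted p = 5.11e-06) and by 0.19 with UCI-1014, where USP2 fell by 0.48. OTUB1 rose by 0.61 and OTUD5 by 0.49 with p53-WT. Of 7 genes whose products hold MDM2 back, among them ribosomal proteins and CDKN2A, 0 changed with UCI-1001, 0 rose and 4 fell with UCI-1014, and 1 rose and 3 fell with p53-WT. The fall with UCI-1014 was small, -0.25 for RPL23, -0.12 for NPM1 and -0.11 for RPL11 on the log2 scale. With p53-WT, GNL3 fell by 1.63 and NPM1 by 0.35, and RPL23 rose by 0.32. Between the compounds, GNL3 was 0.17 higher and RPS7 -0.10 lower with UCI-1014.

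Of 9 kinases upstream of the loop, 2 rose and 2 fell with each compound, and 2 rose and 4 fell with p53-WT. CHEK1 rose by 0.22 with UCI-1001 and by 0.31 with UCI-1014, and was -1.90 lower with p53-WT. DYRK2 fell by 0.25 with UCI-1001 and by 0.31 with UCI-1014, and CSNK1A1 rose by 0.48 with UCI-1014. MAPK14 fell by 0.25 with UCI-1001 and rose by 1.12 with p53-WT, where PRKDC went from 622 ± 169 to 312 ± 56.8 CPM (n = 3, edgeR adjusted p = 0.00112). Of 3 PP2A subunits, the partners of CCNG1, 0 changed with UCI-1001, PPP2CA rose by 0.35 with UCI-1014, and 1 rose (PPP2R1A, by 0.55) and 2 fell with p53-WT (PPP2CA by 0.65 and PPP2R5C by 0.59). Among 5 enzymes that acetylate or deacetylate p53, UCI-1001 raised 4 and UCI-1014 raised 5, with 0 falls, and 1 rose and 1 fell with p53-WT. SIRT1, a p53 deacetylase, went from 49.3 ± 1.72 CPM with DMSO to 64.1 ± 6.49 with UCI-1001 and 121 ± 9.70 with UCI-1014 (n = 2 each, edgeR adjusted p = 0.00313 and 2.58e-09). KAT5 rose by 0.32 and 0.79 and EP300 by 0.30 and 0.66 with UCI-1001 and UCI-1014, and with p53-WT SIRT1 fell by 0.44 and HDAC1 rose by 0.31.

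Of 15 tested p53 targets outside the feedback loop, from a list of 16, 15 rose with p53-WT, at a median of 3.08 on the log2 scale. UCI-1001 raised 3 and lowered 0, with a median of 0.01, and with UCI-1014 8 rose and 2 fell, with a median of 0.32. CDKN1A, the cell cycle inhibitor p21, went from 8.49 ± 1.01 CPM with DMSO to 26.6 ± 1.84 with UCI-1001 and 98.6 ± 1.31 with UCI-1014. PMAIP1, the death gene NOXA, went from 12.2 ± 0.389 CPM to 27.9 ± 2.60 and 47.4 ± 7.51. BTG2 rose by 0.54 with UCI-1001 and by 1.55 with UCI-1014. GDF15 rose by 2.92 with UCI-1014, from 0.210 ± 0.0674 CPM with DMSO to 1.65 ± 0.375 CPM. Its DMSO level was close to that of 3 counts, so the size of this rise is uncertain. BBC3 rose by 1.16 with UCI-1014 against DMSO and was 1.34 higher with UCI-1014 than with UCI-1001. FDXR and AEN were the 2 targets that fell with UCI-1014, by 0.25 and 0.22. MDM2 did not pass in libraries in which CDKN1A and PMAIP1 rose, and 5 of the 15 targets did not pass with either compound. These were SESN1, ZMAT3, XPC and DDB2, with log2 fold changes of 4.40, 3.37, 2.07 and 2.82 with p53-WT, and FAS, with 2.65 for p53-WT, 0.38 for UCI-1001 and 0.32 for UCI-1014.

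**Figure D4:**
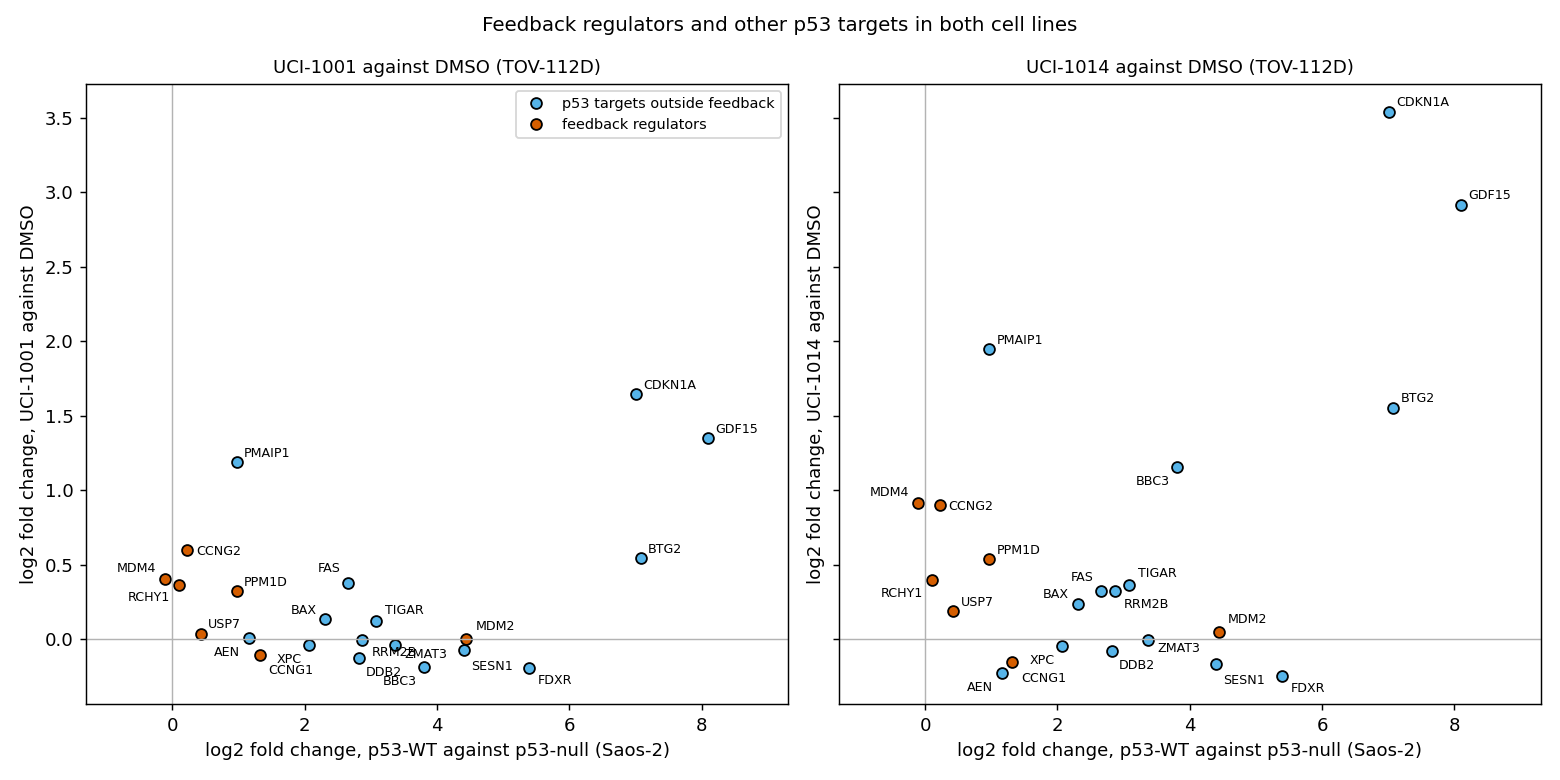
log2 fold change with UCI-1001 (left) or UCI-1014 (right) in TOV-112D on the y axis against that with p53-WT in Saos-2 on the x axis, for 7 feedback regulators and 15 other p53 targets. MDM2 lies at 4.44 on the x axis and at 0.00 and 0.05 on the y axes, near SESN1, whereas CDKN1A lies at 7.01 with 1.65 and 3.54.

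By the root mean square difference of log2(CPM + 1), centred on the control group of each cell line, the 5 genes nearest to MDM2 over the 12 libraries were NPNT, SCN2A, SESN1, KCNS2 and GDF9, at 0.159 to 0.193. KCNS2 and GDF9 were under the filter on low counts in TOV-112D, where the added 1 keeps such genes near 0. Their likeness to MDM2 is therefore measured only in Saos-2, with log2 fold changes of 8.44 and 5.42 with p53-WT. These rises, and that of NPNT, exceeded the 4.44 of MDM2. Their likeness in Saos-2 thus also rests on the added 1, which shrinks the change of genes with low levels. NPNT, an extracellular matrix protein, had log2 fold changes of -0.27 and 0.64 with UCI-1001 and UCI-1014, neither of which passed (edgeR, adjusted p = 0.815 and 0.354), and 6.15 with p53-WT. SESN1, a sestrin known as a p53 target, had -0.07, -0.17 and 4.40, and SCN2A, a sodium channel subunit, 0.02, 0.12 and 4.63. These genes were picked by likeness to MDM2 in the same libraries, so their values and tests describe that choice and are no separate evidence.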

How the data were processed

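RNA from 12 libraries was sequenced, and the submitters' processing notes name kallisto 0.48.0, DESeq2 1.38.3 and GRCh38. The authors summed estimated counts over transcripts of a gene and deposited the sums as whole, unnormalized counts of 40295 genes. They also deposited, per library, the estimated counts, the TPM values and the effective lengths of 187626 transcripts, of which 165858 were found by identifier in GENCODE release 44. The annotation release used by the authors is not given in the sources used here.

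Counts were summed by symbol and tested with edgeR 4.0.16 (TMM, filterByExpr, glmQLFit and glmQLFTest, Benjamini-Hochberg adjustment, threshold 0.05) in R 4.3.3, in one fit per cell line, and for differences between responses in one fit of all 12 libraries. TPM entered no main test and served only to weight transcript lengths in the alternative with an offset for effective length. Fold intervals are 95% intervals of the fit. The tests were checked on simulated data with known changes. MDM2 transcripts found in GENCODE held 96.2% or more of its deposited count in every library, and those of MDM4 86.0% or more. Totals of 17762027 to 24629558 counts set the depth. TP53INP1 in TOV-112D, with all values at or under 3 counts, was given no fold.

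Named genes were the 8 members, up to 3 called genes per list and comparison with the largest change, and the 5 genes most like MDM2. 1 further gene, named singly by the rule, is not reported here. ZMAT3, XPC, DDB2, FAS, FDXR and AEN were named after their values were seen. The members and lists were chosen with earlier results of these data known. The alternatives were RLE factors, DESeq2 1.42.0, no filter, counts per gene identifier, a replicate block, an offset for effective length, one fit of all libraries and leaving out libraries. Python 3.11.15, numpy 2.4.6, pandas 2.3.3 and matplotlib 3.10.9 served for the rest.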

Additional observations from a re-analysis of the deposited data

How the results depend on the processing

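The number of features passing with UCI-1001 (2232) went to 1284 with DESeq2, 672 with the length offset and 308 in one fit of all 12 libraries, and to 952 to 2538 when single libraries were left out (952 without DMSO replicate 1, 1020 without DMSO replicate 2, 1188 without UCI-1001 replicate 2). With UCI-1014 (6677) it went to 3839 with the length offset and 3421 in one fit, and between the compounds (4406) to 2891 with DESeq2, 1908 with the length offset and 937 in one fit. The offset covers fewer genes: without it, over the same genes (chosen after seeing the data), the 3 counts were 1848, 5440 and 3610. It gave no value for MDM2 and MDM4, whose transcript sums did not match the deposited counts. Counts with p53-WT and for the differences between responses stayed within 1.5 times.

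Small changes that had not passed the test changed sign and remained uncalled, on the log2 scale. With UCI-1001, MDM2 was at -0.026 in one fit and at -0.027 to 0.031 without single libraries, USP7 at -0.11 with the length offset and at -0.0072 to 0.078 without single libraries, and CCNG1 at 0.025 with the length offset. With UCI-1014, MDM2 was at -0.0097 in one fit. Between the compounds, RCHY1 was at -0.25 with the length offset, -0.0012 in one fit, and -0.022 to 0.11 without single libraries (-0.0014 without UCI-1014 replicate 1), and CCNG1 at -0.11 to 0.034. With p53-WT, MDM4 was at -0.22 to 0.0067 and RCHY1 at -0.024 to 0.28 without single libraries, and MDM4 at 0.0075 without both replicates 1, which was chosen after seeing the data. The cause was not tested. MDM4 and CCNG2 remained called with UCI-1014 under every alternative that gave a value.

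Whether the replicate numbers pair the libraries was not settled. Same-numbered Saos-2 libraries correlated at 0.187, 0.220 and 0.0499 in their deviations. Differently numbered ones ran from -0.311 (p53-null replicate 2 with p53-WT replicate 1) to 0.255 (p53-null replicate 2 with p53-WT replicate 3). With the replicate number as a block the counts were 1774, 6307, 3882 and 9814, and 8290 and 8786 for the differences between responses; PPM1D (adjusted p = 0.0647) and USP7 (0.0570) lost their calls between the compounds, and USP7 gained one for the difference from p53-WT with UCI-1001 (0.00288) and UCI-1014 (0.0160). In TOV-112D the numbers of UCI-1001 and UCI-1014 correlated at -0.162, and a crossed block, chosen after seeing the data, gave 2830, 7083 and 4979.

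The P2 share of MDM2 TPM, whose group means were 45.2% with DMSO, 45.9% with UCI-1001, 45.7% with UCI-1014, 25.8% p53-null and 45.4% p53-WT, was 22.7%, 22.9%, 24.1%, 12.4% and 17.5% in estimated counts. Merging starts within 100 bases gave 40.1%, 40.4% and 15.1% for DMSO, UCI-1001 and p53-null. Leaving out libraries gave 42.7% to 47.7%, 43.2% to 48.6%, 41.3% to 50.1%, 25.1% to 27.2%, and 32.8% to 52.3%, the 32.8% being without p53-WT replicate 1.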
